A study of Mus musculus with 8 samples.

Results

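Among the 13305 genes of the deposited count table, 9 were chosen for their link to platelet granules and platelet secretion, with earlier results of these data known: Pf4, Ppbp, Vwf, Thbs1, Selp, Mmrn1, Serpine2, F2r and Tmem40. All 9 were found in the table by their Ensembl identifiers, which were matched to gene symbols in GENCODE M21, and none was lost to a filter on low counts. They were followed across whole bone marrow (BM) of mice with a model of acute myeloid leukemia (AML) that differed in Gab2, an adaptor protein that relays signals from growth factor receptors. The study asked how the Gab2 dosage changes this leukemia. Every mouse was C57BL/6N and carried Mx1-Cre, 1 functional copy of Dnmt3a (Dnmt3a+/-) and 2 copies of the activating Flt3-ITD allele (Flt3ITD/ITD). The groups were AML WT (Gab2+/+, 3 mice), AML HET (Gab2+/-, 2 mice) and AML KO (Gab2-/-, 3 mice), which leave 2, 1 and 0 functional Gab2 alleles. Healthy mice without the leukemia alleles were not analysed here, and the labels give no ages for the sequenced mice. Cre was driven by the interferon-responsive Mx1 promoter and, per the study's methods, recombined Dnmt3a without induction. Which cell types recombined in the sequenced mice was not analysed here. The Gab2-null allele carries a neomycin cassette in place of part of the exons, so reads from the remaining exons can still be counted on the gene.

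Megakaryocytes, the large BM cells that shed platelets, make or take up the proteins that platelets carry in their alpha granules and release when a vessel is injured. The cargo includes chemokines such as platelet factor 4 and pro-platelet basic protein, and large adhesive proteins such as von Willebrand factor, thrombospondin 1 and multimerin 1, a carrier of coagulation factor V. P-selectin sits in the granule membrane and reaches the cell surface on release, where it holds leukocytes, and thrombin is a strong trigger of release through protease-activated receptors. The 9 genes are therefore not all granule cargo. F2r encodes a thrombin receptor of the cell surface and Tmem40 a membrane protein of little-known function. Vwf and Selp are also made by endothelial cells, and Thbs1 and Serpine2 by many other cell types.

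The libraries held between 28009258 and 39266815 counts per mouse, and the lowest count of any of the 9 genes in any mouse was 17, for Mmrn1 in AML WT mouse 2. Levels are given in CPM (counts scaled to the TMM-normalized library size), and differences as log2 fold changes with their standard error (SE) from edgeR's quasi-likelihood test, adjusted by the Benjamini-Hochberg method over all 13305 genes. A gene was called when its adjusted p was under 0.05. Gab2 itself lay between 61.6 and 93.9 CPM in AML WT, at 55.8 and 50.8 CPM in AML HET and between 35.0 and 47.2 CPM in AML KO mice, in the order of the labels. Megakaryocyte and platelet markers were present in every mouse: 16 of 17 were in the table and none was at 0 in any mouse. Their summed level was 180.0 to 220.0 CPM in AML WT, 234.6 to 254.3 CPM in AML HET and 409.4 to 513.6 CPM in AML KO mice. Of the 16, 12 were called higher in AML KO than in AML WT, where 1.77% of all genes were called higher. The markers not called were Itgb3, Rgs18, P2rx1 and Ptgs1, with mean levels of 71.3, 53.2, 22.8 and 19.3 CPM in AML WT. They made up most of the AML WT sum (mean 195.5 CPM), so the sum understates the change of the called markers. In these bulk samples, a larger number of cells of a type and more RNA per cell cannot be told apart.

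In AML KO BM, 5 of the 9 genes were higher than in AML WT BM: the chemokine genes Pf4 (15.9-fold) and Ppbp (10.9-fold), the multimerin gene Mmrn1 (6.32-fold), Vwf (3.60-fold) and Tmem40 (2.58-fold). Over all genes, 1.77% were called higher and 2.09% were called in either direction. None of the 9 was lower, and their median log2 fold change was 1.37, where the median of all genes was −0.02. At an unadjusted p under 0.05 there were 8 of the 9 and 2349 of all genes. In 6 of the 9 genes every AML KO mouse lay above every AML WT mouse, a pattern held by 12.3% of all genes. The genes outside the called set, Thbs1, Selp, F2r and Serpine2, had smaller differences and, apart from Thbs1, overlapping groups.

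The chemokine genes had the largest differences. Pf4 (ENSMUSG00000029373, chromosome 5, 90772435 to 90773383, plus strand) encodes platelet factor 4, which binds heparin and is a standard label of the megakaryocyte lineage. Its level was 2.24, 2.97 and 3.89 CPM in AML WT mice 1 to 3, 6.00 and 12.7 CPM in AML HET mice 1 and 2, and 69.2, 42.1 and 33.3 CPM in AML KO mice 1 to 3. AML KO mouse 1 stood highest, and even the lowest AML KO mouse was above every other mouse. Against AML WT, the log2 fold change in AML KO was 3.99 (SE 0.38, adjusted p = 0.00206), the 15th largest rise of all genes. Ppbp (ENSMUSG00000029372, chromosome 5, 90768518 to 90770063, plus strand), whose product is cut into a neutrophil-attracting chemokine, lies next to Pf4 on the same strand, with 2372 bases between the genes. It measured 4.35, 2.72 and 4.26 CPM in AML WT, 7.85 and 11.3 CPM in AML HET and 37.4, 47.6 and 38.4 CPM in AML KO mice. Here the AML KO mice lay close together and AML KO mouse 2, not mouse 1, was highest. The log2 fold change was 3.44 (SE 0.24, adjusted p = 0.000882).

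The large adhesive proteins followed with smaller differences. Mmrn1 (ENSMUSG00000054641, chromosome 6, 60924976 to 60989378, plus strand), the gene of the factor V carrier multimerin 1, had the lowest level per exon length of the 9 genes in AML WT BM. Its level was 0.910, 0.537 and 0.888 CPM in AML WT, 1.47 and 1.12 CPM in AML HET and 4.35, 5.68 and 4.86 CPM in AML KO mice. The groups did not overlap, and AML KO exceeded AML WT by a log2 fold change of 2.66 (SE 0.30, adjusted p = 0.00472). These levels rest on 17 to 37 counts per AML WT mouse and 133 to 165 per AML KO mouse.

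Vwf (ENSMUSG00000001930, chromosome 6, 125546774 to 125686679, plus strand) encodes von Willebrand factor, which tethers platelets to exposed collagen. It measured 8.75, 7.55 and 5.30 CPM in AML WT, 7.75 and 12.97 CPM in AML HET and 27.96, 27.5 and 22.5 CPM in AML KO mice. AML HET mouse 1 lay within the AML WT range, while the AML KO mice were above all others (log2 fold change 1.85, SE 0.25, adjusted p = 0.00884). Thbs1 (ENSMUSG00000040152, chromosome 2, 118111876 to 118127133, plus strand), the gene of thrombospondin 1, measured 23.3, 19.6 and 10.5 CPM in AML WT, 16.6 and 18.4 CPM in AML HET and 29.7, 61.4 and 44.5 CPM in AML KO mice. Although every AML KO mouse was above every AML WT mouse, both groups were wide, and the log2 fold change of 1.34 (SE 0.32) had an adjusted p of 0.0707. It was called with DESeq2 (adjusted p = 0.00115), which called 5.49% of all genes it tested in this comparison, and when AML KO mouse 1, the lowest of its group, was left out (log2 fold change 1.57, adjusted p = 0.0434). The edgeR adjusted p of Thbs1 was 0.186 without AML KO mouse 3 and 0.169 with the replicate number as a block.

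Of the surface and membrane protein genes Tmem40, Selp and F2r, only Tmem40 (ENSMUSG00000059900, chromosome 6, 115729131 to 115762410, minus strand) was called. It measured 11.3, 11.1 and 10.5 CPM in AML WT, 12.3 and 13.03 CPM in AML HET and 36.6, 23.9 and 24.5 CPM in AML KO mice. The AML WT mice were closer together than for any other of the 9 genes, with the highest 1.08 times the lowest, and AML KO mouse 1 stood above its group. The log2 fold change was 1.37 (SE 0.18, adjusted p = 0.00884). Without AML WT mouse 2, neither Tmem40 (adjusted p = 0.0585) nor Vwf (adjusted p = 0.0579) was called.

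Selp (ENSMUSG00000026580, chromosome 1, 164115264 to 164150026, plus strand), the gene of P-selectin, measured 1.79, 0.948 and 1.01 CPM in AML WT, 1.05 and 1.34 CPM in AML HET and 1.77, 3.24 and 2.27 CPM in AML KO mice. AML WT mouse 1 lay just above AML KO mouse 1, so the groups overlapped, and the log2 fold change of 0.94 (SE 0.36) had an adjusted p of 0.243. F2r (ENSMUSG00000048376, chromosome 13, 95601803 to 95618487, minus strand) encodes the thrombin receptor Par1. Its level was 20.5, 11.5 and 11.8 CPM in AML WT, 15.4 and 11.7 CPM in AML HET and 21.2, 26.4 and 18.4 CPM in AML KO mice (log2 fold change 0.59, SE 0.25, adjusted p = 0.272). AML WT mouse 1 again fell inside the AML KO range.

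Serpine2 (ENSMUSG00000026249, chromosome 1, 79794197 to 79861180, minus strand), which encodes protease nexin 1, an inhibitor of thrombin and other serine proteases, had the smallest difference. It measured 27.4, 21.7 and 18.1 CPM in AML WT, 17.9 and 15.7 CPM in AML HET and 28.4, 30.6 and 26.8 CPM in AML KO mice. The overlap came from AML WT mouse 1, and the log2 fold change of 0.35 (SE 0.17) had an adjusted p of 0.306. Without AML WT mouse 1, the log2 fold changes were 1.29 for Selp (adjusted p = 0.188), 0.91 for F2r (adjusted p = 0.0834) and 0.51 for Serpine2 (adjusted p = 0.193). Leaving out other single mice gave values down to 0.68 for Selp, 0.44 for F2r and 0.22 for Serpine2. The adjusted p rose to 0.361 for Selp without AML WT mouse 2. Without AML KO mouse 1, it rose to 0.555 for F2r and 0.616 for Serpine2. AML WT mouse 1 was the highest of its group for 8 of the 9 genes but the lowest for Pf4.

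**Figure D1:**
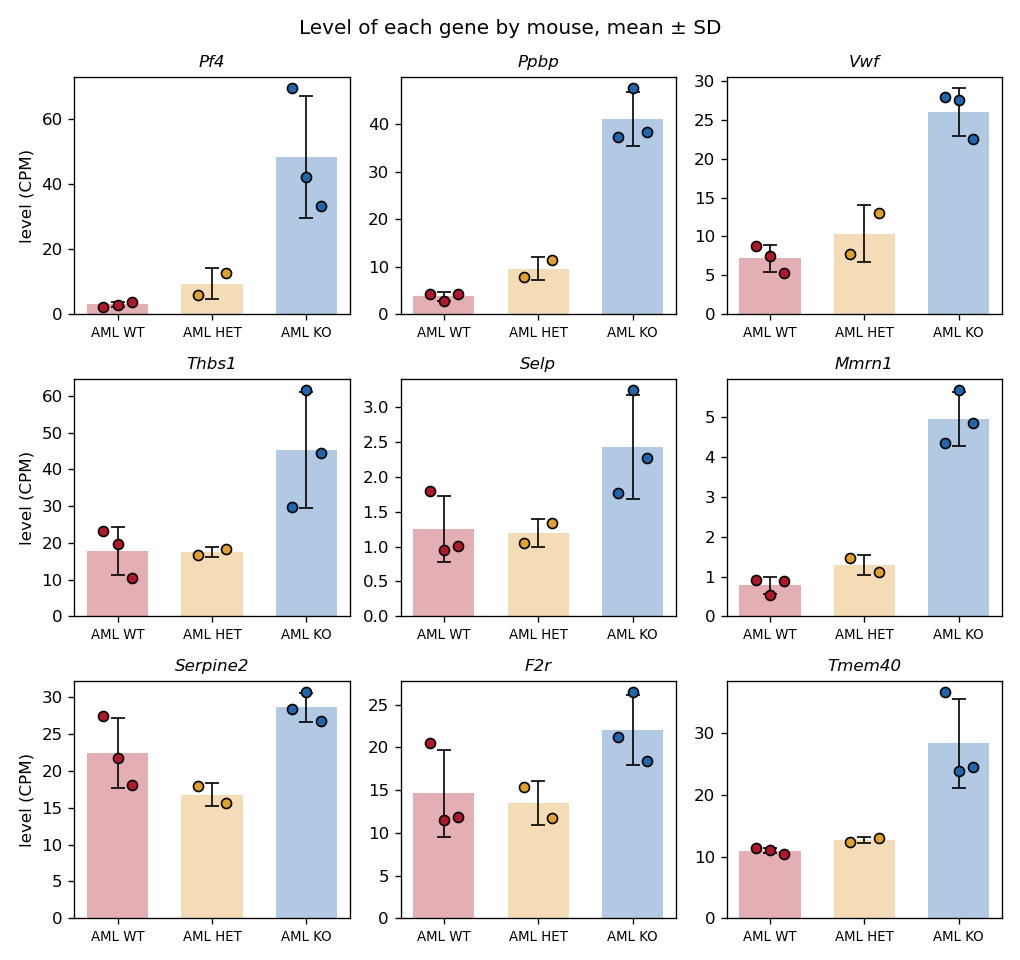
Level in CPM (vertical axis, starting at 0 and scaled for each gene) of the 9 genes in each mouse (3 AML WT, 2 AML HET, 3 AML KO), with 1 point per mouse, bars for the group mean and whiskers for the SD. Every AML KO mouse lies above every AML WT mouse for Pf4, Ppbp, Vwf, Thbs1, Mmrn1 and Tmem40, while AML WT mouse 1, the leftmost red point, reaches the AML KO range for Selp, Serpine2 and F2r.

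With 1 functional Gab2 allele, the 9 genes did not move together. Mean levels of Pf4 were 3.03 ± 0.827 CPM in AML WT, 9.34 ± 4.73 CPM in AML HET and 48.2 ± 18.7 CPM in AML KO BM (SD, n = 3, 2 and 3), and those of Ppbp 3.78 ± 0.917, 9.60 ± 2.47 and 41.1 ± 5.60 CPM. The log2 fold changes between AML HET and AML WT were 1.63 for Pf4 (SE 0.39, adjusted p = 0.555) and 1.34 for Ppbp (SE 0.24, adjusted p = 0.430). They were smaller for Mmrn1 (0.72, SE 0.33), Vwf (0.52, SE 0.27) and Tmem40 (0.21, SE 0.20), and lay within 1 SE of 0 for Thbs1 (−0.03, SE 0.35), Selp (−0.07, SE 0.41) and F2r (−0.11, SE 0.28). For Serpine2 the value was −0.42 (SE 0.19), with both AML HET mice below all AML WT mice.

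Of the 9 genes, edgeR called 0 between AML HET and AML WT, where 0.0225% of all genes, 3 in number, were called. At an unadjusted p under 0.05 there were 2 of the 9, Pf4 and Ppbp, against 329 of all genes, and DESeq2 called these 2 as well, with 0.444% of all genes it tested (59 of 13297), while limma-voom called 0. In 4 genes, Pf4, Ppbp, Mmrn1 and Tmem40, both AML HET mice lay above all AML WT mice, as 9.53% of all genes did. Between AML KO and AML HET, edgeR called 0 of the 9 and 0% of all genes, limma-voom called 0 of the 9, and DESeq2 called 7, all but Selp and F2r, with 0.579% of all genes it tested (77 of 13297). At an unadjusted p under 0.05, however, there were 9 of 9, against 780 of all genes, and in all 9 every AML KO mouse lay above both AML HET mice, a pattern held by 13.2% of all genes. The log2 fold changes between AML KO and AML HET ran from 0.70 (SE 0.29) for F2r to 2.36 (SE 0.41) for Pf4, with a median of 1.32. The comparisons share mice, so their values are not independent of each other.

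**Figure D2:**
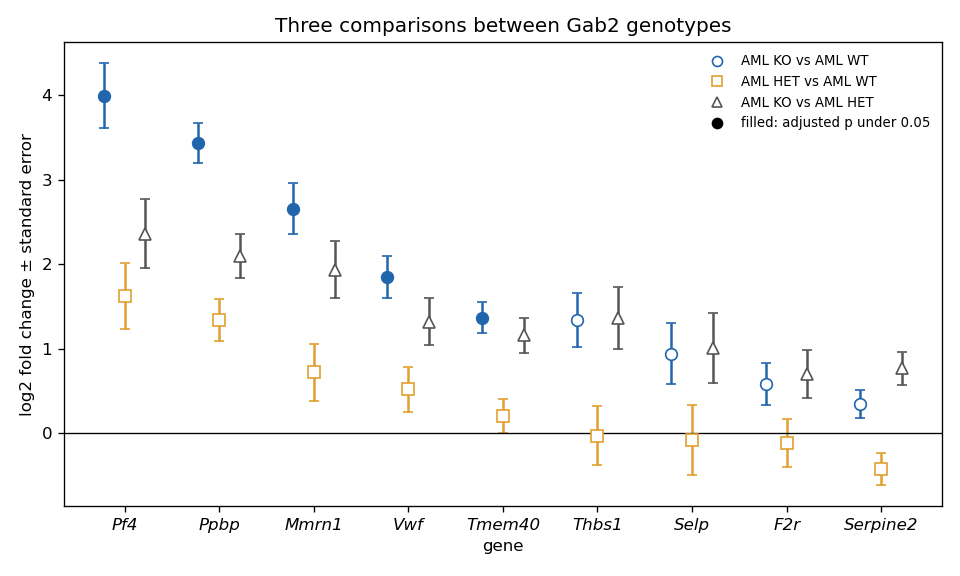
The log2 fold change (vertical axis) of each of the 9 genes in 3 comparisons between Gab2 genotypes, with whiskers of 1 standard error and filled symbols for an adjusted p under 0.05. Values fall from Pf4 to Serpine2 between AML KO and AML WT (circles), AML HET against AML WT (squares) runs from 1.63 for Pf4 to −0.42 for Serpine2, and AML KO against AML HET (triangles) stays above 0 throughout.

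A slope on the number of functional Gab2 alleles used all 8 mice at once. AML HET lies in the middle of this scale, with 3 mice on either side, so its level has little weight in the slope. The slope therefore largely repeats the comparison of AML KO with AML WT and is not a separate test of dosage. Per lost allele, the log2 level rose by 2.01 for Pf4 (SE 0.18, adjusted p = 0.000703), 1.73 for Ppbp (SE 0.12, adjusted p = 0.000332), 1.35 for Mmrn1 (SE 0.16, adjusted p = 0.00310), 0.93 for Vwf (SE 0.13, adjusted p = 0.00476) and 0.69 for Tmem40 (SE 0.11, adjusted p = 0.00900). These 5 of 9 genes were called, where 2.11% of all genes rose with fewer alleles. The slopes of Thbs1 (0.67, SE 0.17, adjusted p = 0.0762), Selp (0.47, SE 0.18), F2r (0.29, SE 0.13) and Serpine2 (0.18, SE 0.11) did not pass. Without AML WT mouse 1, the slope of F2r was 0.47 with an adjusted p of 0.0471, while without AML KO mouse 1 its adjusted p was 0.548. For 4 of the 9 genes, Pf4, Ppbp, Mmrn1 and Tmem40, all AML WT mice were below both AML HET mice and these below all AML KO mice, an order that 1.77% of all genes had. On the log2 scale, AML HET stood at 0.408 of the way from AML WT to AML KO for Pf4, 0.390 for Ppbp, 0.272 for Mmrn1 and 0.152 for Tmem40. For these 4, the order of the mice already places AML HET between the other groups. The position was 0.283 for Vwf and negative for Thbs1 (−0.019), Selp (−0.077), F2r (−0.194) and Serpine2 (−1.20).

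The promoters of Pf4, Ppbp, Mmrn1 and Tmem40 are shown because their levels kept the order of the Gab2 genotypes in every mouse. RefSeq sequences for build GRCm38.p6 gave 8 promoters for 7 of the 9 genes. Each line below holds the 250 bases before the RefSeq start, read 5′ to 3′ on the gene's strand, and for Tmem40 the first of 2 promoters is given. The RefSeq start of Mmrn1 differs from the start of the GENCODE M21 gene given above, so its window lies inside that gene. Capitals mark matches to AGGAAG, the core bound by ETS factors such as Fli1, and to the sites of GATA factors, spelled AGATAA or with other ends AGATAG or in the variant TGATAA or else TGATAG, on either strand (the reverse of AGGAAG reads CTTCCT).
Pf4, chr5:90772185-90772434, plus strand: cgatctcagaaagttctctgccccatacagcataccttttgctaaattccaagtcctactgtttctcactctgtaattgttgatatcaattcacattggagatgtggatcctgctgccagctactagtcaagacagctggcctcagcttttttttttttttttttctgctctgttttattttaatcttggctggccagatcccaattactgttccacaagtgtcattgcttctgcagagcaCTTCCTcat
Ppbp, chr5:90768268-90768517, plus strand: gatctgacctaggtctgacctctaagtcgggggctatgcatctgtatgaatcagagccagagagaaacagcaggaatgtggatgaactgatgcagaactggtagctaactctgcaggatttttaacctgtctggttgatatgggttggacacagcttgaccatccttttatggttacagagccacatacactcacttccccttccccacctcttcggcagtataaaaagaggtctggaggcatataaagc
Mmrn1, chr6:60944067-60944316, plus strand: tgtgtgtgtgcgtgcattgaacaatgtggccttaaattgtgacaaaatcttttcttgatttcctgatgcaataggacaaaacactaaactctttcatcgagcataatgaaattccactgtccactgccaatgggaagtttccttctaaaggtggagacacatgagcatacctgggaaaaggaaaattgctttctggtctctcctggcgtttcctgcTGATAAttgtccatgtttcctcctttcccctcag
Tmem40, chr6:115762467-115762716, minus strand: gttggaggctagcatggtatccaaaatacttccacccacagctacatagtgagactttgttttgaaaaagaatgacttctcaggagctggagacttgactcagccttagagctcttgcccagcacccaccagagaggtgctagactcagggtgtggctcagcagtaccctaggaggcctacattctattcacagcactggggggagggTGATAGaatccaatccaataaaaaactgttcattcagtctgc
Pf4 had an AGGAAG on the reverse strand 9 bases before the start, and an AGATAA within the first 50 bases after it. Mmrn1 had a TGATAA 34 bases and Tmem40 a TGATAG 42 bases before the start, and Ppbp had no match to the searched spellings in its window. In the windows of 300 bases, which add the 50 bases after the start, 4 of the 8 promoters held a GATA match and 4 an ETS match, with 2 holding both. The GATA count includes both promoters of Tmem40, so it is not a count of genes, and the second of them is among the 2 holding both. Of all 32851 RefSeq promoters, 29.8% held a GATA match, 35.4% an ETS match and 10.7% both. For promoters of genes in the table these shares were 19.5%, 34.5% and 7.41%. A match of these letters is a description of the sequence, not evidence that a factor binds there.

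Compared per length of the annotated exons (RPKM, the CPM per kilobase), the order of the 9 genes changed between genotypes. In AML WT BM, Tmem40 had the highest level, 5.13 ± 0.206 RPKM (SD, n = 3), followed by F2r (4.38 ± 1.54), Pf4 (4.21 ± 1.15), Ppbp (3.49 ± 0.846), Thbs1 (2.93 ± 1.08) and Serpine2 (2.70 ± 0.567), and each of these lay within the SD of its neighbour in that order. Vwf (0.448 ± 0.109), Selp (0.284 ± 0.107) and Mmrn1 (0.133 ± 0.0356) were well below them. In AML KO BM, Pf4 (66.9 ± 26.0 RPKM) and Ppbp (38.0 ± 5.17) came first, above Tmem40 (13.2 ± 3.34), Thbs1 (7.44 ± 2.61), F2r (6.59 ± 1.23) and Serpine2 (3.45 ± 0.232). Vwf (1.62 ± 0.189), Mmrn1 (0.846 ± 0.114) and Selp (0.549 ± 0.170) remained the lowest, with Mmrn1 now ahead of Selp. In AML HET BM, Pf4 (12.95 ± 6.56 RPKM, SD, n = 2) and Ppbp (8.86 ± 2.28) already stood above Tmem40 (5.92 ± 0.240), with overlapping SDs for Pf4 and Ppbp.

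Pf4 and Ppbp together made up 6.55%, 7.24% and 12.3% of the summed CPM of the 9 genes in AML WT mice 1 to 3. Their share was 16.1% and 24.4% in AML HET and 41.6%, 33.4% and 33.3% in AML KO mice, so no mouse fell inside the range of another group. The summed CPM was 100.6, 78.6 and 66.3 in AML WT, 86.2 and 98.3 in AML HET and 256.6, 268.4 and 215.4 in AML KO mice, with AML HET inside the AML WT range. Between each other, the chemokine genes varied without an order by genotype. The ratio of Pf4 to Ppbp in CPM was 0.514, 1.09 and 0.914 in AML WT, 0.763 and 1.12 in AML HET and 1.85, 0.885 and 0.867 in AML KO mice. The exact permutation test of a single such value cannot give a two-sided p below 0.1 for 3 mice against 3.

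The level of each gene was also set against the mean log2 level of the 16 megakaryocyte and platelet markers in the same mouse (log2 CPM with a prior count of 2), none of which is among the 9 genes. That marker mean was 1.67, 1.72 and 1.64 in AML WT, 2.11 and 2.61 in AML HET and 4.10, 3.87 and 3.75 in AML KO mice, a difference of 2.23 between AML KO and AML WT. Relative to it, Pf4 was 1.70 and Ppbp 1.21 higher in AML KO than in AML WT on the log2 scale, both without overlap between the groups. Over all genes, 0.338% were higher in this way and 97.5% lower, since few genes changed as much as the markers. Mmrn1 (0.37), Vwf (−0.37) and Thbs1 (−0.88) overlapped between the groups. Tmem40 (−0.90), Selp (−1.30), F2r (−1.61) and Serpine2 (−1.86), 4 of the 9 genes, were lower without overlap. The markers themselves changed unevenly, with log2 fold changes between AML KO and AML WT from 0.20 (Rgs18) to 3.84 (Gp1bb). Gp1bb and Gp5 (3.67) rose more than Ppbp (3.44), so a gain over the marker mean is not a gain over every marker.

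**Figure D3:**
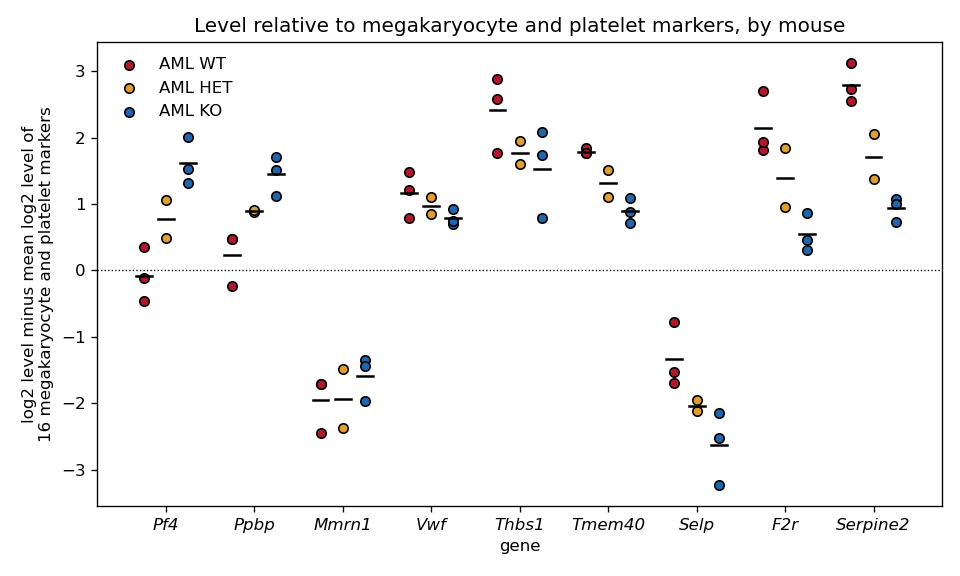
Log2 level of each of the 9 genes minus the mean log2 level of 16 megakaryocyte and platelet markers in the same mouse (vertical axis, log2 units), with 1 point per mouse and a line at each group mean. Pf4 and Ppbp are higher in all AML KO mice than in all AML WT mice, Mmrn1, Vwf and Thbs1 overlap, and Tmem40, Selp, F2r and Serpine2 are lower.

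Markers of other cell types moved with these genes too. For the counts that follow, 1.77% of all genes were called higher and 2.09% in either direction between AML KO and AML WT. Between AML KO and AML WT, 12 of 13 erythroid markers were called higher (summed level 106.6 to 144.3 CPM in AML WT, 215.5 to 430.1 in AML HET and 274.1 to 688.1 in AML KO mice), as were 6 of 10 neutrophil markers (1266 to 4656, 5363 to 6041 and 10404 to 17059 CPM) and 4 of 6 basophil and mast cell markers (54.0 to 71.8, 101.2 to 108.6 and 187.6 to 318.3 CPM). Of 14 endothelial markers 1 was called higher, Tie1, with a median log2 fold change of 0.44 and a summed level of 190.5 to 202.3 CPM in AML WT, 180.9 to 215.3 in AML HET and 224.7 to 309.1 in AML KO mice. Of these 14, 12 had a positive log2 fold change. In 5 of them every AML KO mouse lay above every AML WT mouse, as in 12.3% of all genes. Cdh5, also of this list, overlapped between the groups, with 8.75, 5.41 and 5.66 CPM in AML WT and 2.75, 12.4 and 5.54 CPM in AML KO mice. Of the 10 monocyte and macrophage markers, 9 had a negative log2 fold change, with a median of −0.32, and 1 was called higher (Vcam1) and 1 lower (Mrc1). Their summed level was 2832 to 3094 CPM in AML WT, 2715 to 2984 in AML HET and 2069 to 2635 in AML KO mice, the last without overlap with the others. By edgeR, none of the 10 stromal, 11 T and NK cell and 8 B cell markers was called, with 3, 3 and 0 at an unadjusted p under 0.05. The summed level of the stromal markers was 690.2 to 1232 CPM in AML WT, 601.9 to 674.6 in AML HET and 401.5 to 668.5 in AML KO mice, while those of the T and NK cell and of the B cell markers overlapped between AML WT and AML KO. No marker in the table was at 0 in any mouse, and the part of these cell types in the levels of the 9 genes was not tested.

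Other genes of the granule pathway mostly did not pass. Of 23 further cargo and secreted proteins in the table, 2 were called higher and none lower, and the median log2 fold change was 0.12. They were Clu, the gene of the secreted chaperone clusterin (AML WT 2.75 ± 0.677 CPM, AML KO 9.07 ± 1.12 CPM, SD, n = 3, log2 fold change 1.72, SE 0.31), and Ltbp1, which encodes a binding protein of latent TGF-β (1.85 ± 0.303 and 5.51 ± 0.628 CPM, log2 fold change 1.57, SE 0.23). Of 21 genes for granule biogenesis and loading, 2 were called higher and none lower, with a median of −0.08. Slc35d3, a gene needed for dense granules, rose from 0.494 ± 0.194 to 2.86 ± 1.25 CPM (log2 fold change 2.54, SE 0.44), and Cd63, a membrane protein of dense granules and lysosomes, from 48.6 ± 11.3 to 126.2 ± 28.5 CPM (1.38, SE 0.21). All AML KO mice lay above all AML WT mice for 5 cargo and 6 biogenesis genes, as for 12.3% of all genes, and below for 1 and 3. At an unadjusted p under 0.05 there were 7 cargo and 8 biogenesis genes, against 2349 of all genes. Some cargo genes, such as Fn1 (2148 CPM) and F13a1 (1528 CPM), had AML WT means far above the 9 genes. Which cells expressed them was not tested.

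Of 14 genes of the release machinery, 2 were called higher and none lower, with a median of 0.28. In 8 of the 14 the AML KO mice were all above the AML WT mice, a pattern held by 12.3% of all genes. Rab27b, a small GTPase of granule docking, rose from 2.07 ± 0.235 to 7.23 ± 0.685 CPM (log2 fold change 1.80, SE 0.22) and Sytl4, which binds Rab27 proteins, from 0.584 ± 0.104 to 2.10 ± 0.551 CPM (1.84, SE 0.34). Against these lists, 2.09% of all genes were called in the full fit, and the calls changed when single mice were left out. With AML WT mouse 2 left out, the calls over all genes fell too, as given in the last section. In that run 0 of the cargo and 0 of the biogenesis genes and 1 of the release genes were called. Without AML KO mouse 3 the cargo and biogenesis genes had 1 each. The biogenesis genes also had 1 without AML WT mouse 1 or AML KO mouse 1, and the release genes 1 without AML WT mouse 1, AML WT mouse 3 or AML KO mouse 1.

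Receptors, ligands and relatives of the 9 proteins gave 2 calls among 15 genes in the table, both higher, with a median of 0.10. Over all genes, 1.77% were called higher. Gp1ba, the platelet receptor of von Willebrand factor, measured 1.99 ± 0.357 CPM with the AML WT, 3.18 ± 1.18 CPM with the AML HET and 7.43 ± 1.14 CPM with the AML KO genotype (SD, log2 fold change 1.90, SE 0.28, adjusted p = 0.0111). F2rl2 encodes Par3, which with Par4 carries the thrombin response of mouse platelets. It measured 3.08 ± 0.538, 4.54 ± 0.425 and 8.69 ± 2.33 CPM (log2 fold change 1.49, SE 0.25, adjusted p = 0.0174). F2rl3, the gene of Par4, measured 5.80 ± 0.431, 7.08 ± 1.09 and 10.4 ± 1.18 CPM (0.84, SE 0.19, adjusted p = 0.0543), without overlap between AML KO and AML WT. F2rl1, a trypsin-activated relative, had a log2 fold change of 0.10 (SE 0.45).

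The ratio of F2rl2 to F2r in CPM was 0.144, 0.229 and 0.311 in AML WT, 0.276 and 0.414 in AML HET and 0.532, 0.303 and 0.369 in AML KO mice, so AML KO mouse 2 fell just below AML WT mouse 3 and the groups overlapped. The leukocyte ligand of P-selectin, Selplg, had a log2 fold change of 0.16 (SE 0.14), and the thrombospondin receptors Cd36 and Cd47 had −0.17 (SE 0.25) and −0.18 (SE 0.14). Cxcr2, the receptor of the Ppbp product on neutrophils, had 15.4 ± 4.65 CPM in AML WT mice and 34.3 ± 11.0 CPM in AML KO mice, without overlap (1.16, SE 0.28, adjusted p = 0.0762). Without AML WT mouse 2, where the calls over all genes fell too, 0 of the 15 genes were called, and without AML WT mouse 1 or AML KO mouse 1, 1 was. The chemokine genes Cxcl1, Cxcl2, Cxcl3 and Cxcl5 were not in the table. Of 9 transcription factors of the megakaryocyte lineage, 5 were called higher, against 1.77% of all genes: Gata1 (log2 fold change 3.54, SE 0.53), Gfi1b, Gata2, Tal1 and Zfpm1. The others were not called. Nfe2 (0.54, SE 0.14) and Mafg (0.24, SE 0.13) had positive values, and Runx1 (−0.10, SE 0.12) and Fli1 (−0.22, SE 0.18) negative ones.

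**Figure D4:**
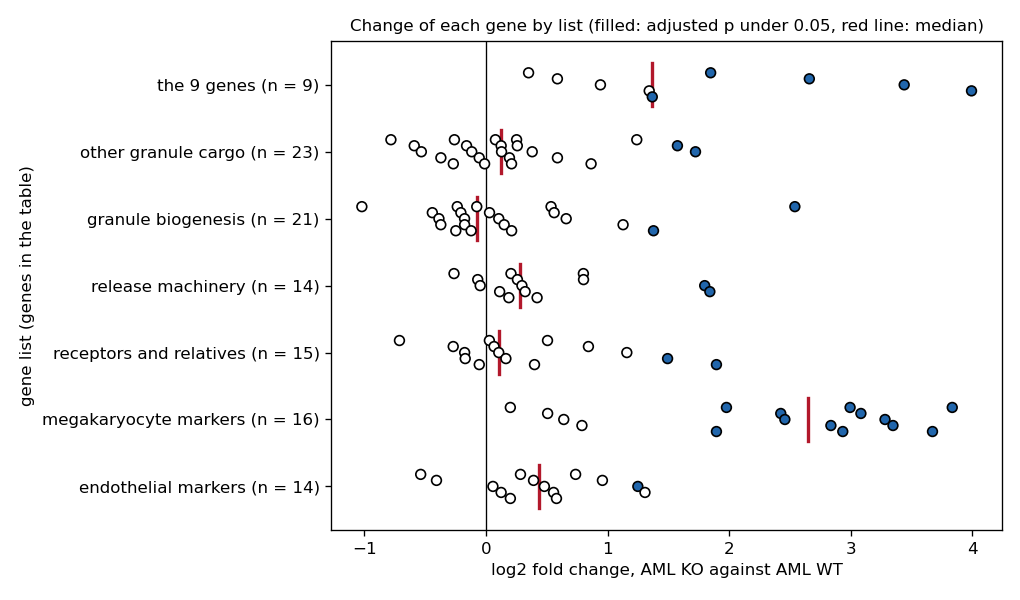
Log2 fold change of AML KO against AML WT (horizontal axis) for every gene in the table of 7 lists (vertical axis), with filled points for an adjusted p under 0.05 and a red line at each list's median. The medians of the 9 genes (1.37) and of the megakaryocyte markers (2.65) lie above those of the further cargo (0.12), biogenesis (−0.08), release (0.28), receptor (0.10) and endothelial (0.44) genes.

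The genes whose levels ran closest to each of the 9 were found from the root mean square (rms) difference of log2 CPM over the 8 mice, each gene centred on its mean. For Pf4 they were Gp5 (rms difference 0.237), Gp1bb (0.240) and Treml1 (0.347), and for Ppbp Mpig6b (0.245), Gp5 (0.294) and Alox12 (0.312). Closest to Vwf was Gp1ba (0.111), followed by Kalrn (0.246) and Nlrp12 (0.258). Mmrn1 was matched best by Myl9 (0.321), Slc6a4 (0.337) and Myom1 (0.359), Tmem40 by Myct1 (0.0984), Pcyt1b (0.131) and Crispld2 (0.140), and Thbs1 by Tmem215 (0.231), Dach1 (0.263) and Sema3g (0.322). The closest genes were Mylk (0.185), Pard3b (0.185) and Mrvi1 (0.198) for Selp, Adgrl4 (0.139), Chst13 (0.155) and Hlf (0.158) for F2r, and Sh3d19 (0.107), Usp2 (0.123) and Prx (0.154) for Serpine2. Among the 9 genes themselves, Serpine2 and F2r were the closest pair (0.213) and Pf4 and Serpine2 the farthest apart (1.63), while Pf4 and Ppbp differed by 0.487. Genes that vary little over the mice have small differences by construction, and all values share the same 8 libraries.

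Most genes within 100 kb of the 9 were not called. F5, the gene of coagulation factor V, lies 1812 bases from Selp and had a log2 fold change of 0.26 (SE 0.30), and Sele, the gene of E-selectin, 57587 bases from Selp, had 0.03 (SE 0.60). Cd9, 51983 bases from Vwf, had 0.41 (SE 0.15, adjusted p = 0.230). F2rl2, 78366 bases from F2r, was called although F2r was not. Annotated non-coding genes overlap Thbs1 and Selp on the opposite strand and Tmem40 on its own strand. None of them was in the table, and whether counting used the strand is not given in the sources used here.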

How the data were processed

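RNA of whole BM was sequenced on an Illumina HiSeq4000 from 8 mice, with 1 library per mouse. The authors deposited raw counts per gene without normalization. The submitters' processing notes name Trimmomatic 0.36, STAR 2.5.2b and build mm10, and the counting tool, its annotation and strand setting are not given in the sources used here. The table holds no gene with fewer than 106 counts over the 8 mice. Of 13305 Ensembl identifiers, 13266 were found in GENCODE M21 (GRCm38), which gave symbols, positions and exon lengths.

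Counts were analysed with R 4.3.3 and edgeR 4.0.16 (TMM, robust quasi-likelihood fit of all 8 mice with the genotype, or the number of functional Gab2 alleles, as the only term, Benjamini-Hochberg adjustment over all genes, threshold 0.05). The filter on low counts (filterByExpr) removed 0 genes. The standard error was derived from the F statistic. Alternatives were DESeq2 1.42.0, limma-voom (limma 3.58.1), other normalizations and filters, the replicate number as a block, AML WT and AML KO mice alone, and each mouse left out in turn. The 9 genes, the lists and the tests were chosen with earlier results of these data known. Named genes were the 9, the called genes of each list with the largest change, their direct receptors and ligands, and the 3 genes closest to each of the 9. Not all of these are reported, and some neighbouring genes are not reported here. Cd9, F5, Sele and Cdh5 were named after their values were seen. The numbers of mice and of counts limit the precision, as given by the SD and SE. Measurements other than RNA-seq were not analysed here.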

Additional observations from a re-analysis of the deposited data

How the results depend on the processing

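With 3, 2 and 3 mice, the number of mice, the spread between them and the depth all limit the calls, and their shares were not compared. Between AML KO and AML WT, all 9 genes kept a positive log2 fold change under every alternative run, and Pf4 and Ppbp were called in all of them. Leaving out 1 mouse at a time moved the number of the 9 called from 3 (without AML WT mouse 2, where Vwf and Tmem40 had adjusted p = 0.0579 and 0.0585 and 40 of all genes were called) to 6. The ranges were 0 to 3 for the further cargo, 0 to 3 for biogenesis, 1 to 2 for release and 0 to 3 for the receptors and relatives, and 5 to 6 of the 9 for the slope on alleles. DESeq2 called 2 of the 9 between AML HET and AML WT, 7 of the 9 between AML KO and AML HET (59 and 77 of all genes), and 4 genes each for biogenesis, release and receptors between AML KO and AML WT. It called 730 of all genes in that comparison, against 278 with edgeR, and 240 were called with at least 10 counts in every mouse.

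The labels do not say whether mice with the same number were paired. Deviations from the group means had correlations of −0.51 to 0.29 for mice with the same number and −0.36 to 0.46 for others. Within groups of 2 or 3 mice the deviations are tied to each other, so these values cannot decide whether the numbers mark a pairing. With the replicate block, 2 of the 9 genes were called between AML KO and AML WT (Pf4, adjusted p = 0.0473, and Ppbp, 0.0376), with 0.0549 for Mmrn1 and Vwf and 0.0649 for Tmem40, and 0 genes for the cargo, biogenesis, release and receptor lists. Over all genes 19 were called, and the slope on alleles kept 5 of the 9.

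Among the 9 genes, only small differences between AML HET and AML WT changed sign. Thbs1 had 0.038 with limma-voom and 0.0018 with upper-quartile normalization, and when single mice were left out it ran from −0.28 to 0.22 (0.22, 0.05 and 0.05 without AML WT mouse 1, AML WT mouse 2 and AML HET mouse 1). Selp ran from −0.26 to 0.29 (0.29 and 0.09 without AML WT mouse 1 and AML HET mouse 1) and F2r from −0.32 to 0.22 (0.22 and 0.07 without AML WT mouse 1 and AML HET mouse 2). No scaling alternative moved the median of all genes by more than 0.025 on the log2 scale. The cause of these changes was not tested.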
